A study of Mus musculus with 4 samples.

Results

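Leukocytes leave the blood through venules, and the endothelial genes that let them do so were examined in single cells of mouse Achilles tendon. The 8 genes were chosen by name for their roles, not by a threshold on measured values, and with earlier results of these data known: the selectins Selp and Sele, the immunoglobulin-family adhesion molecules Icam1, Icam2, Vcam1 and Pecam1, the chemokine-binding receptor Ackr1, and Vwf, the clotting protein of endothelial storage granules. All 8 of 8 were found among the 15746 genes of the count table. They were followed through the 13 populations of the authors' annotation, which holds 1191 cells: 190, 74 and 36 cells of endothelial cells 1, 2 and 3 (300 in all), 107 pericytes, 92 immune cells, 145 red blood cells, 173, 156 and 51 cells of tendon fibroblasts 1, 2 and 3, 40 bursal fibroblasts, and 49, 46 and 32 cells of nerve cells 1, 2 and 3.

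The cells came from 4 libraries of Achilles tendon of male C57Bl/6 mice aged 6 weeks, which form a single group with no treatment, made with version 3 of a droplet-based 3-prime kit. Whether a library holds 1 mouse or pooled mice is not stated in the labels, so p-values measure the spread between these libraries. Unique molecular identifiers (UMIs) let each captured molecule be counted a single time, and levels are given as the UMIs of a gene in every 1000000 UMIs of the same cells (CPM). The libraries held from 1375111 to 5603366 UMIs, and 0 cell barcodes were shared between them. Endothelial cells 1 and 2 had median depths of 7343 and 8322.5 UMIs per cell, and library 3 was the shallowest in both (3946.5 and 5280 UMIs). A 3-prime count does not depend on transcript length in the way full-length reads do, but capture still differs between genes, so levels were compared between cells and not between genes.

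As background, leukocyte capture runs in steps. P-selectin (Selp) is stored with von Willebrand factor (Vwf) in Weibel-Palade bodies and moves to the surface within minutes, and E-selectin (Sele) is made after inflammatory signals. Both bind carbohydrate ligands on leukocytes, so that the cells roll. ICAM-1 and VCAM-1 then bind leukocyte integrins for firm arrest, ICAM-2 is a constitutive integrin ligand, and PECAM-1 at the junctions takes part in the passage between endothelial cells. ACKR1 binds chemokines without signalling and carries them across venular endothelium.

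The endothelial names were first set against marker genes. The 10 pan-endothelial genes (such as Cdh5, Kdr and Tie1) summed to 7800 to 9467 CPM per library in endothelial cells 1 and 7456 to 7653 CPM in endothelial cells 2, against at most 131 CPM in any library of the immune, red blood, fibroblast and nerve populations. Pericytes lay between, at 881 to 3442 CPM per library. Of 6 lymphatic genes, 5 were highest in endothelial cells 3, where they summed to 9960 CPM with the libraries pooled, against 51.7 CPM in endothelial cells 1 and 32.4 CPM in endothelial cells 2. Macrophage genes summed to at most 40.5 CPM in any library of endothelial cells 1 and 2, with Ptprc and Adgre1 at 0 UMIs in both. Of 7 platelet genes, Gp9, Gp1bb, Gp6 and Treml1 were at 0 UMIs in endothelial cells 1 and 2. All 7 together summed to 12.9 to 22.9 CPM per library in endothelial cells 1 (31 UMIs) and 0 to 41.9 CPM in endothelial cells 2 (24 UMIs). Pericyte and smooth muscle genes summed to 454 to 1405 CPM in endothelial cells 1 and 1416 to 2810 CPM in endothelial cells 2.

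The 8 genes fell into separate patterns over the 13 populations. Selp and Sele were found only in endothelial cells 1 and 2, with 97.5% and 95.9% of their UMIs in endothelial cells 2, and had 0 UMIs in the 891 cells outside the endothelium. Icam2 and Pecam1 were carried by all 3 endothelial populations. Icam1, Vwf, Vcam1 and Ackr1 had their highest level in endothelial cells 2 but were also found in other cell types.

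**Figure D1:**
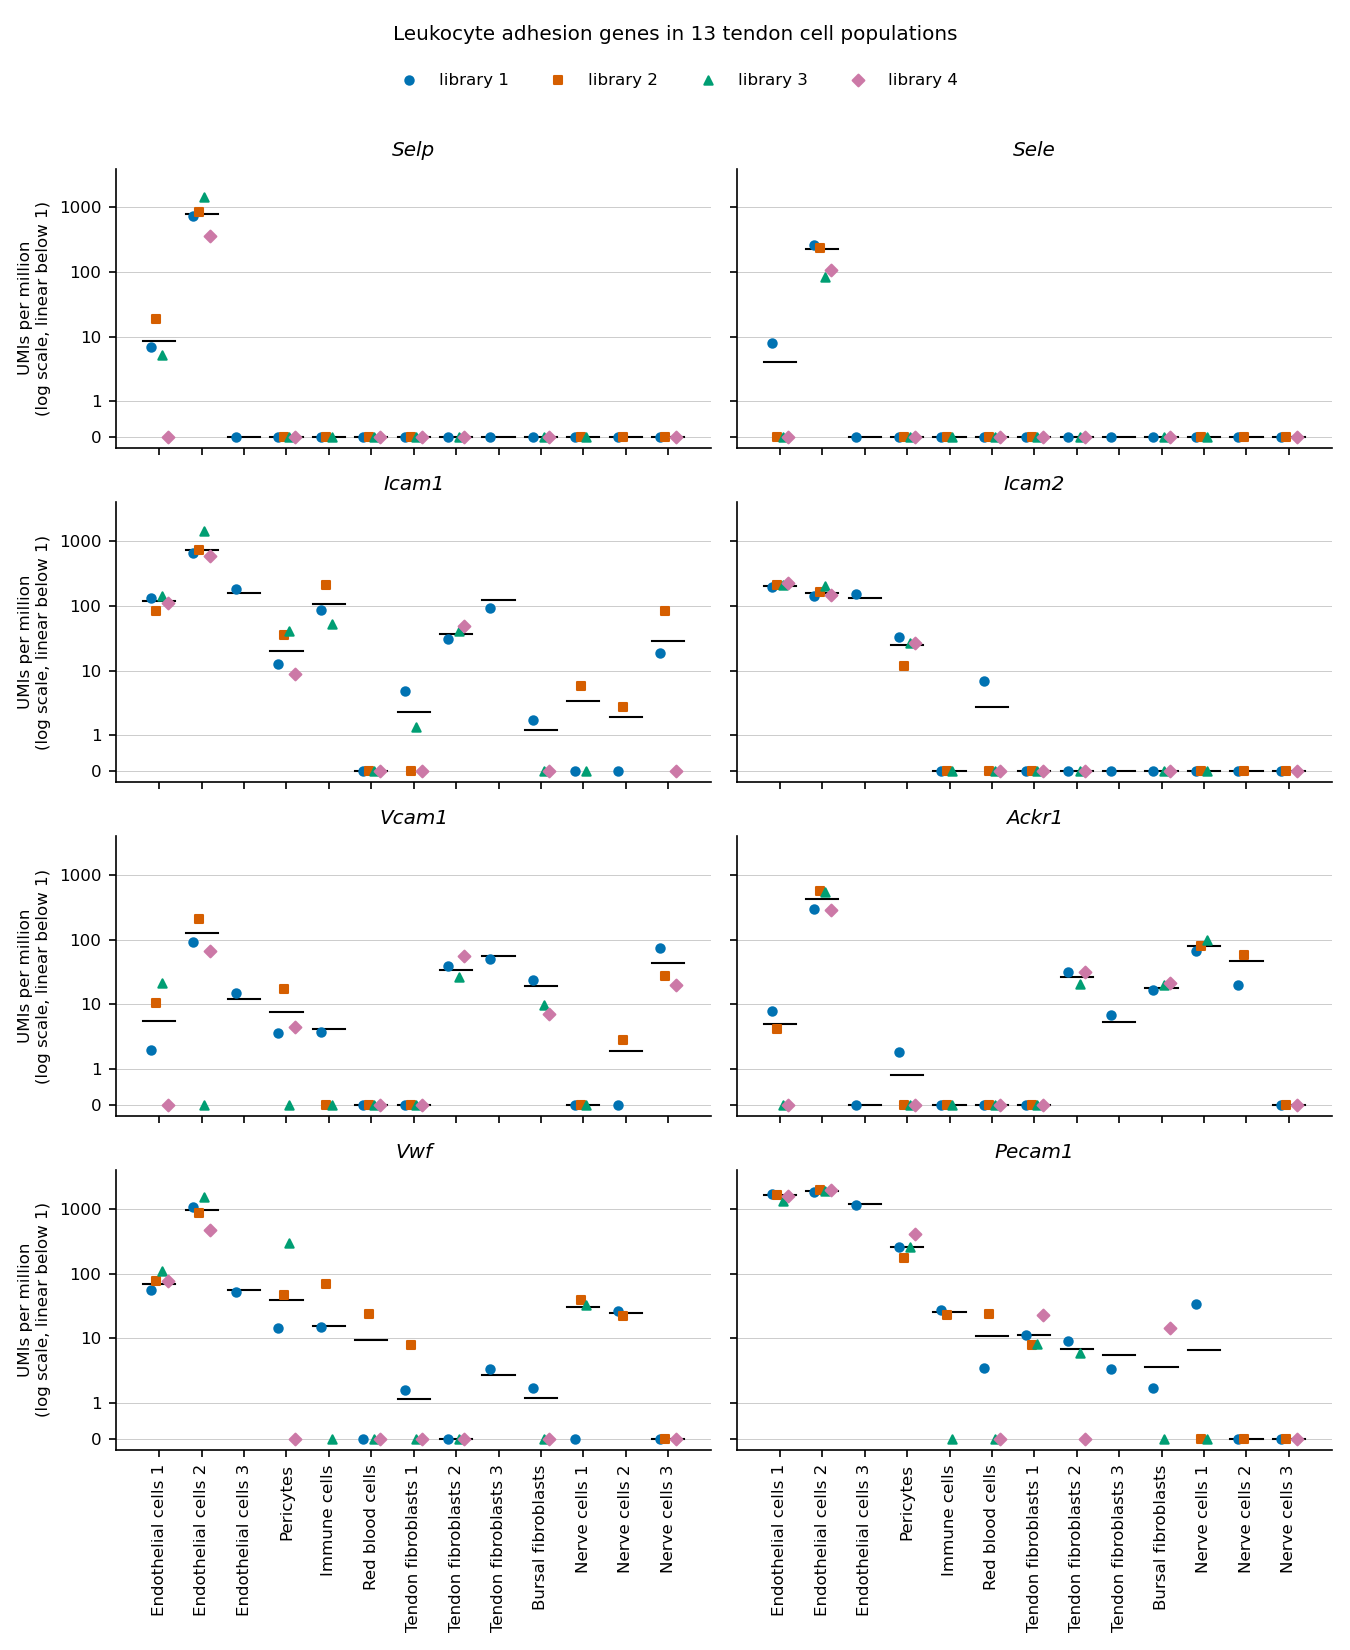
Level of each gene (vertical axis, CPM, log scale and linear below 1) in the 13 populations of the authors' annotation; each point is a library with 5 or more cells of the population and each black line the libraries pooled. Selp and Sele sit at 0 in every population but endothelial cells 1 and 2, while Vcam1 and Ackr1 have further populations above 10 CPM among fibroblasts and nerve cells.

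Tested over all endothelial cells together, 7 of the 8 genes were higher in the endothelium than in all other cells of the same library. In that comparison 2929 of 9385 genes (31.2%) passed an adjusted p of 0.05 and 15.1% were higher in the endothelium. Pecam1 was at 1620 ± 124 CPM in the endothelium and 53.3 ± 37.7 CPM outside it (SD, n = 4 libraries; log2 fold change 4.80, edgeR adjusted p = 8.6e-05). Icam2 was at 191 ± 11.7 CPM and 3.75 ± 2.30 CPM, a log2 fold change of 5.29 (edgeR adjusted p = 2.7e-05). Icam1, Ackr1 and Vwf had log2 fold changes of 3.06, 2.60 and 4.58. Selp and Sele were at least 607-fold and 173-fold higher with the libraries pooled, where the bound sets 3 UMIs against the 0 found outside the endothelium. With 0 UMIs there, both genes passed the filter on low counts through the endothelium and could only come out higher. For these 7 genes the library values of both sides did not overlap, as for 41.2% of all genes tested. Vcam1 did not pass (log2 fold change 0.85 ± 0.50 SE, edgeR adjusted p = 0.242), although it was higher in 4 of 4 libraries. Without library 2, which had the most Vcam1 in endothelial cells 2, its log2 fold change was 0.06 (edgeR adjusted p = 0.919).

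Between the endothelial populations, 5 of 7 genes that passed the filter on low counts were higher in endothelial cells 2 than in endothelial cells 1, each in 4 of 4 libraries and with no overlap of the library values. The background was 933 of 5126 genes called (18.2%), with 10.5% of the genes tested higher and 7.74% lower in endothelial cells 2, and 19.7% had library values that did not overlap. Selp, Sele and Ackr1 had only 17, 8 and 10 UMIs in endothelial cells 1. They passed the filter through endothelial cells 2 and could only come out higher. The direction was open for Icam1, Vwf, Icam2 and Pecam1, of which Icam1 and Vwf were higher. Since the authors' annotation was itself built from these counts, the test asks how far the populations differ and not whether they exist. When both were clustered again without the 8 genes, 97.3% of their 264 cells kept their name, and the same 5 genes were called. The new clusters came from other genes of the same counts and held nearly the same cells. These calls are therefore not an independent check.

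Selp, Ackr1 and Sele had the highest fold changes of the 7 genes tested, in an order that changed between settings. Selp was at 749, 857, 1430 and 365 CPM in libraries 1 to 4 of endothelial cells 2 and at 6.92, 18.7, 5.28 and 0 CPM in endothelial cells 1. Every library of endothelial cells 2 lay far above every library of endothelial cells 1 (log2 fold change 6.54 ± 0.30 SE, edgeR adjusted p = 4.6e-10). Sele, the other endothelial selectin, was at 259, 239, 84.1 and 108 CPM in endothelial cells 2 and at 7.91, 0, 0 and 0 CPM in endothelial cells 1. Its groups did not overlap either (log2 fold change 5.76 ± 0.41, edgeR adjusted p = 3.5e-08). All 8 UMIs of Sele in endothelial cells 1 were from library 1, 7 of them in a single cell that also carried Selp. Without library 1, which leaves 0 UMIs of Sele in endothelial cells 1, the fitted log2 fold change was 8.36. The Selp log2 fold change was 7.18 without library 2 and 5.57 with the clusters formed without the 8 genes, and both were called.

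Icam1, the integrin ligand that cytokines induce, was present in both populations. It was at 660, 728, 1430 and 594 CPM in endothelial cells 2 and at 133, 83.1, 143 and 113 CPM in endothelial cells 1 (log2 fold change 2.82 ± 0.20, edgeR adjusted p = 3.5e-08). Library 3 stood above the other 3 libraries of endothelial cells 2. Part of the 3-prime end of Icam1 is overlapped by Gm47079, an antisense gene that is also in the table, by 511 bases, and whether the counting used strand is not given in the sources used here.

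Selp and Sele both lie on chromosome 1 (genome build mm10, positions from GENCODE): Sele at chr1:164048234-164057677 and Selp at chr1:164115264-164150026, both on the plus strand. Icam1 is at chr9:21015985-21028817 on the plus strand. Because Selp, Sele and Icam1 were higher together in endothelial cells 2, the 250 bases before the RefSeq start site of each (GRCm38.p6, plus strand, chr1:164047984-164048233, chr1:164115014-164115263 and chr9:21015690-21015939) are shown, with matches to TATAAA and GGAATNTCC in capitals.
Sele: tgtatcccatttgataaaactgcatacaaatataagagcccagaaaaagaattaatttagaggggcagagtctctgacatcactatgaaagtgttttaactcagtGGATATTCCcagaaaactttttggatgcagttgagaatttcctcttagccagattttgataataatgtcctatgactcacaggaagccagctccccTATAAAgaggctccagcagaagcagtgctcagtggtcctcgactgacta
Selp: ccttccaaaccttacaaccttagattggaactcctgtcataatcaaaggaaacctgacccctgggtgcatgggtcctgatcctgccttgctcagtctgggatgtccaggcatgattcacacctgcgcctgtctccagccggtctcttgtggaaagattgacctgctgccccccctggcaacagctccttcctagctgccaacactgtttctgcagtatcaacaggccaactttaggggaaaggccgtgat
Icam1: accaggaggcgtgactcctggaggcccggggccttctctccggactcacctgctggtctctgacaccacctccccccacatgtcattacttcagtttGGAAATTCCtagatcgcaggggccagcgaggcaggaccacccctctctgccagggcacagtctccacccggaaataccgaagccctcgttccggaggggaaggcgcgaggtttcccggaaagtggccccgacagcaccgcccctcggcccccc
Both strands were searched over these bases and the 50 that follow the start site, and 4 of the 8 genes have an entry among 32851 RefSeq promoters. TATAAA was found in Sele at position -49 from the start site and in Icam1 at position 14, past the stretch shown, and in 13.6% of all promoters. GGAATNTCC, a motif picked after the sequences had been read, matched on the minus strand in Sele at position -145 and in Icam1 at position -153, and matched in 0.931% of all promoters. Selp had no match to either motif. The kappa-B consensus motif, searched only as GGGRNNYYCC (R is A or G, Y is C or T, N any base) and held by 8.46% of all promoters, matched in none of the 3 windows. Looser forms of that motif were not searched, so this does not show that they are absent. A match describes letters only and does not show a binding site.

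Ackr1 and Vwf, which mark venules in many tissues, showed the same step. Ackr1 was at 304, 578, 555 and 284 CPM in endothelial cells 2 and at 7.91, 4.16, 0 and 0 CPM in endothelial cells 1 (log2 fold change 6.30 ± 0.35, edgeR adjusted p = 2.7e-09). No library of endothelial cells 1 came near the lowest of endothelial cells 2, and the log2 fold change was 7.61 without library 1 and 5.18 with the clusters formed without the 8 genes. Vwf was at 1063, 879, 1514 and 473 CPM in endothelial cells 2 and at 55.4, 76.9, 111 and 77.4 CPM in endothelial cells 1 (log2 fold change 3.71 ± 0.23, edgeR adjusted p = 6.9e-09). Unlike the selectins, Vwf was found in every library of endothelial cells 1, in 61 of 190 cells. Vwf is at chr6:125546774-125686679 on the plus strand.

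**Figure D2:**
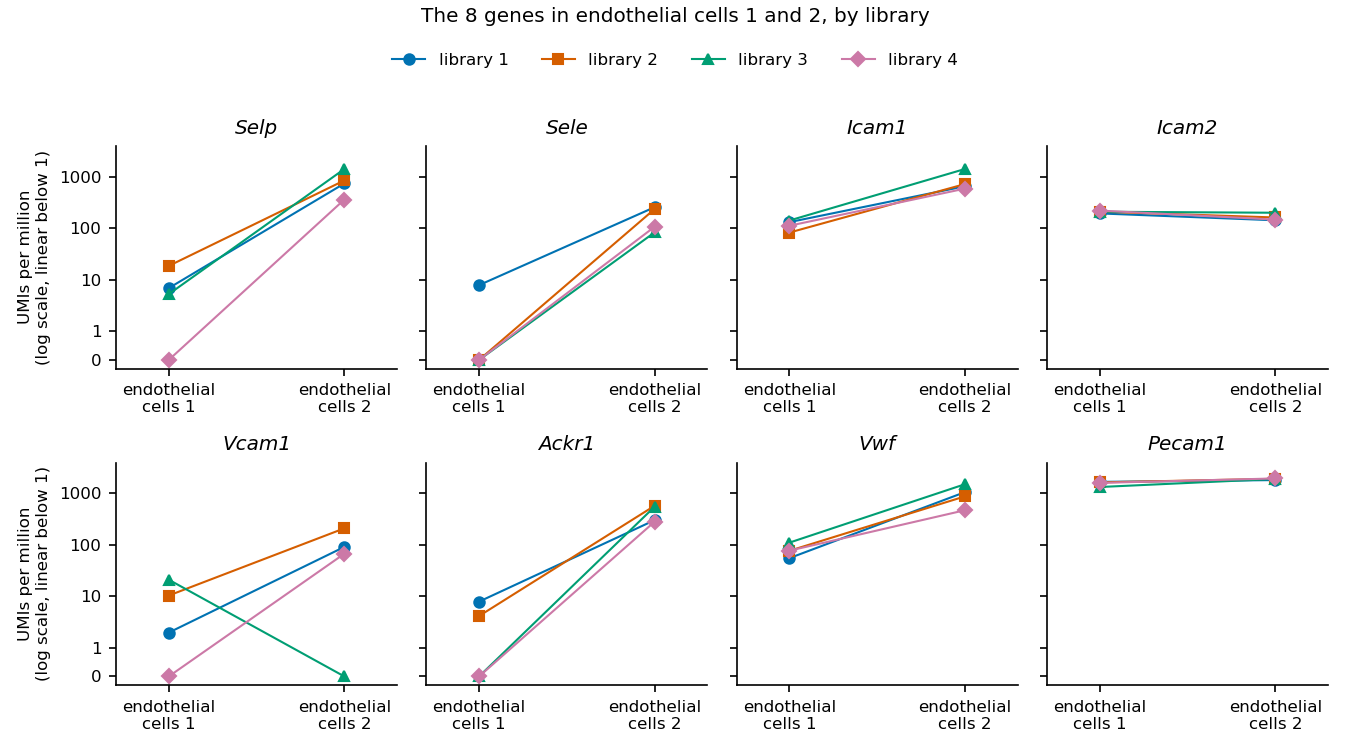
CPM (vertical axis, log scale and linear below 1) of each gene in endothelial cells 1 and 2; each line joins the values of 1 library. Selp, Sele, Icam1, Ackr1 and Vwf are higher in endothelial cells 2 in all 4 libraries, Icam2 and Pecam1 lie near level, and Vcam1 is higher in 3 libraries and at 0 in library 3 of endothelial cells 2.

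Icam2 and Pecam1 did not pass the test. Icam2 was at 144, 163, 202 and 149 CPM in endothelial cells 2 and at 196, 212, 211 and 222 CPM in endothelial cells 1. It was lower in 4 of 4 libraries by a small amount, and the groups overlapped (log2 fold change -0.32 ± 0.19, edgeR adjusted p = 0.302). Pecam1 was at 1822, 1931, 1917 and 1959 CPM in endothelial cells 2 and at 1680, 1642, 1335 and 1605 CPM in endothelial cells 1. Its groups did not overlap, yet it missed the threshold (log2 fold change 0.34 ± 0.13, edgeR adjusted p = 0.0791), and its adjusted p ran from 0.0757 to 0.487 over 12 alternatives. Both lie on chromosome 11, on the minus strand, Icam2 at chr11:106377656-106388075 and Pecam1 at chr11:106654217-106750628.

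Vcam1, the ligand of the integrin that Itga4 encodes, was uneven between libraries. It was at 91.6, 210, 0 and 67.5 CPM in endothelial cells 2 and at 1.98, 10.4, 21.1 and 0 CPM in endothelial cells 1. Endothelial cells 2 were higher in 3 of 4 libraries and the groups overlapped. None of the 11 cells of library 3 had a UMI, a count that allows up to 62.0 CPM (exact Poisson 95% interval, counting error only). That limit lies below the intervals of libraries 1 (63.8 to 127 CPM) and 2 (163 to 267 CPM) and within that of library 4 (21.9 to 158 CPM). Vcam1 did not pass the filter on low counts. It was called without the filter (log2 fold change 4.19, edgeR adjusted p = 8.1e-21), where 3.96% of 14184 genes were higher. That value lay below the edgeR adjusted p of Selp under the filter (4.6e-10), although the groups of Vcam1 overlapped. It is therefore not read as the spread between libraries. Vcam1 was also called without library 3 (log2 fold change 4.91, edgeR adjusted p = 1.3e-05). That fit leaves out the library in which endothelial cells 2 were lower. One cell held 26.2% of the 107 Vcam1 UMIs of endothelial cells 2. The gene is at chr3:116109949-116129688 on the minus strand.

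Depth differs between populations, so shares of cells with a UMI were also taken after each cell was thinned to 2400 UMIs, which left out 5 cells of endothelial cells 2 and 14 of endothelial cells 1. Selp was then found in 69.6% of 69 cells of endothelial cells 2 and 1.14% of 176 cells of endothelial cells 1, and without thinning in 81.1% and 3.16%. Sele was found in 42.0% and 0.568% of thinned cells, Ackr1 in 52.2% and 1.14%, and Vcam1 in 24.6% and 1.14%. Icam1 was found in 68.1% and 15.9%, and Vwf in 88.4% and 17.0%. The shares of Icam2 (30.4% and 30.1%) and Pecam1 (97.1% and 96.0%) were close in both. In tendon fibroblasts 1, which gave the background of free RNA at a median depth of 8824 UMIs, 0 of 161 thinned cells had a UMI of 7 of the genes, which allows a share of up to 1.86%, and 1.86% had one of Pecam1.

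Most single cells of endothelial cells 2 carried several of the genes at once. Of 74 cells, 67 (90.5%) had UMIs of 5 or more of the 8 genes and 13 had all 8, against 6 of 190 (3.16%) and 0 in endothelial cells 1. Selp, Ackr1 and Vwf were found together in 46 of 74 cells (62.2%, exact 95% interval 50.1 to 73.2%), and in 1 of 190 cells of endothelial cells 1. The interval treats the cells as independent, though they share libraries. Taken singly, the 3 genes were found in 81.1%, 78.4% and 93.2% of the 74 cells. Whether the joint share exceeds what these single shares would give was not tested. The 6 cells of endothelial cells 1 with Selp were from libraries 1, 2 and 3, and held Icam1 at 325 CPM, against 109 CPM in the 184 cells without Selp. One of the 6, the cell with 7 UMIs of Sele, held 16 of their 29 Icam1 UMIs, and the other 5 were at 205 CPM.

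**Figure D3:**
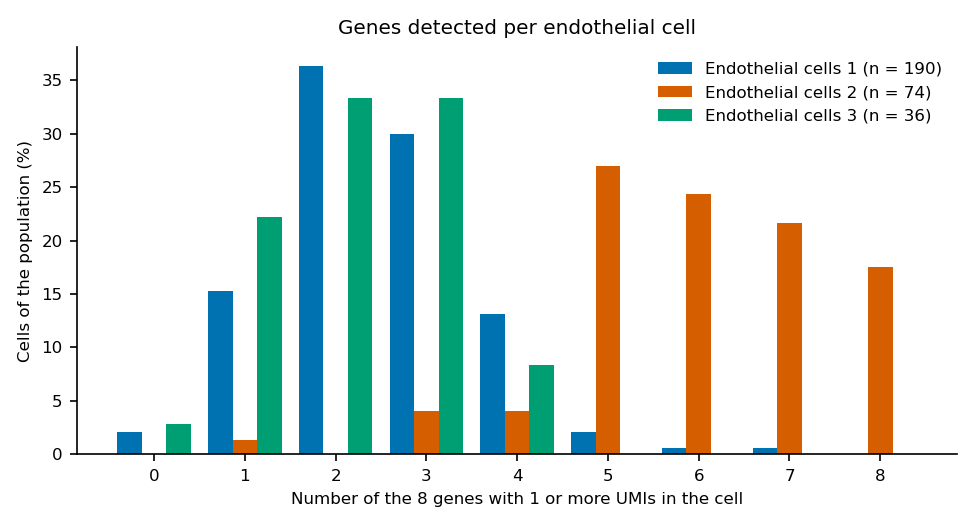
Share of cells (vertical axis, percent) by the number of the 8 genes with 1 or more UMIs in the cell (horizontal axis), for the 3 endothelial populations, not thinned. Endothelial cells 1 and 3 peak at 2 to 3 genes, and 90.5% of endothelial cells 2 hold 5 or more.

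Within endothelial cells 2 the levels of the genes were only loosely related from cell to cell. Over 28 pairs of genes the Pearson correlation of ln(1 + 10000 × UMIs / total) across the 74 cells, which share libraries and depth, had a median of 0.0644 (range -0.153 to 0.510). The highest was that of Selp with Sele, at 0.510, above 0 in 4 of 4 libraries (0.609, 0.510, 0.162 and 0.720) and at 0.337 after thinning. Of the 60 cells with Selp, 63.3% also had Sele, against 35.7% of the 14 cells without Selp. Selp with Icam1 had a correlation of 0.372, also above 0 in 4 of 4 libraries (0.149, 0.637, 0.334 and 0.305) and 0.330 after thinning. Detection went the other way, with Icam1 in 86.7% of the 60 cells with Selp and 92.9% of the 14 cells without it. Vwf with Pecam1 was at 0.341, below 0 in library 4, and at 0.134 after thinning. Ackr1 with Vwf was at -0.104 and below 0 in 4 of 4 libraries, but at 0.110 after thinning. Over endothelial cells 1 and 2 pooled the median was 0.267 and the highest value 0.711, a spread that holds the difference between the populations as well as that between cells.

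**Figure D4:**
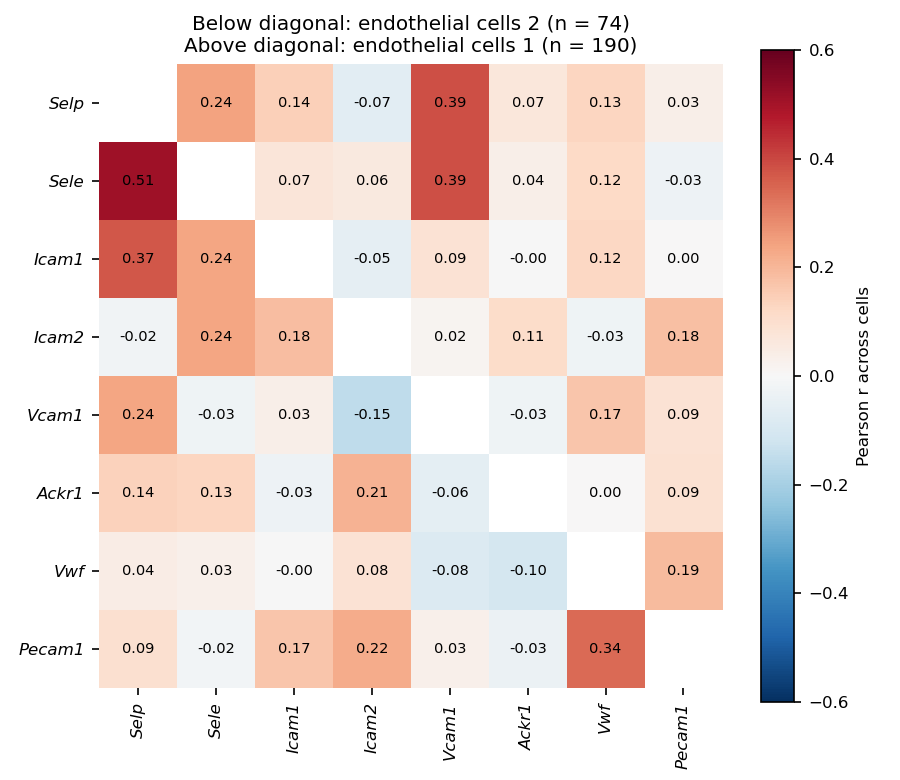
Pearson correlation across cells of each pair of genes, with endothelial cells 2 (74 cells) below the diagonal and endothelial cells 1 (190 cells) above it. Selp with Sele (0.510) and Selp with Icam1 (0.372) lead below the diagonal, and the values above it for Selp and Sele rest on 6 and 2 cells with a UMI.

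Endothelial cells 3, the population with the lymphatic markers, held 0 UMIs of Selp, Sele and Ackr1 in 36 cells, which allows up to 9.18 CPM of each at a floor of 3 counts. It carried Pecam1 at 1163 CPM, Icam1 at 185 CPM, Icam2 at 152 CPM and Vwf at 51.8 CPM in library 1, the only library with 5 or more of its cells (26). The other libraries had 4, 3 and 3 cells, with Pecam1 at 1344, 1209 and 1068 CPM. Sums of so few cells were tested in a comparison added after the data were seen. Against endothelial cells 2, Selp, Icam1, Ackr1 and Vwf were lower in endothelial cells 3 in 4 of 4 libraries (4 of 5 genes tested), where 22.5% of 1224 genes were called and 13.3% were lower. The log2 fold change was -2.99 ± 0.55 for Icam1 (edgeR adjusted p = 0.0019) and -4.04 ± 0.57 for Vwf (edgeR adjusted p = 0.00034), and Selp and Ackr1 were at least 87.6-fold and 46.2-fold lower. With 0 UMIs in endothelial cells 3, Selp and Ackr1 passed the filter through endothelial cells 2 and could only come out lower. Sele, not tested under the filter, had 188 UMIs against 0, at least 24.6-fold lower. Pecam1 missed the threshold (log2 fold change -0.64, edgeR adjusted p = 0.0961), but was called with no filter on low counts (-1.24, edgeR adjusted p = 0.0293), where 7 of 8 genes were called against 5.09% of 13346 genes, and with no library block (-0.63, edgeR adjusted p = 0.0386). Against endothelial cells 1, where 16.8% of 4280 genes were called, none of the 4 genes tested was called by edgeR (Icam1, Icam2, Vwf and Pecam1, lowest adjusted p 0.0777), and of these Icam2 and Pecam1 had an unadjusted p under 0.05.

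Pericytes wrap the same vessels and were compared with endothelial cells 2. All 7 genes that passed the filter were higher in endothelial cells 2 in 4 of 4 libraries, where 33.5% of 4694 genes were called and 17.2% were higher. Icam1 was at 12.7, 35.0, 40.3 and 8.83 CPM in pericytes (log2 fold change 5.07 ± 0.32, edgeR adjusted p = 5.6e-07). Selp and Sele had 0 UMIs in 107 pericytes, at least 320-fold and 89.7-fold lower, and Ackr1 had 1 UMI. Genes so low in pericytes, these among them, passed the filter through endothelial cells 2 and could only come out higher. The count of 7 is therefore not read against the 17.2%. Pecam1, Icam2 and Vwf were higher by log2 fold changes of 2.80, 2.59 and 4.38, and that of Vwf was 3.74 without library 1 and 5.27 without library 3. These 3 values moved with 20 pericytes that also carried 3 or more of the 10 pan-endothelial genes: they held 308 of the 313 Pecam1 UMIs of pericytes, 29 of 30 of Icam2 and 45 of 46 of Vwf. Their median depth was 17006.5 UMIs, against 8659 in the other 87. With them left out, in an alternative added after the data were seen, the log2 fold changes were 7.97, 6.24 and 8.83. The 20 cells were picked by endothelial genes and held nearly all of these UMIs, so the choice of cells fixed this rise. The 20 cells had 0 UMIs of Selp, Sele and Ackr1. Conversely, 11 cells of endothelial cells 2 and 23 of endothelial cells 1 carried 3 or more of 9 pericyte genes, and whether these barcodes hold more than 1 cell was not tested.

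Immune cells carry the partners of these molecules. Against immune cells, in the 3 libraries with 5 or more cells of both, 7 of 7 genes tested were higher in endothelial cells 2 (30.8% of 3757 genes called, 17.7% higher). Icam1 came closest, at 85.2, 209 and 52.8 CPM in immune cells (log2 fold change 3.12 ± 0.47, edgeR adjusted p = 3.2e-05), and Selp, Sele, Icam2 and Ackr1 had 0 UMIs in 92 immune cells. Genes so low in immune cells, these among them, passed the filter through endothelial cells 2 and could only come out higher. The count of 7 is therefore not read against the 17.7%. The log2 fold change of Icam1 was 2.41 once library 4, with 3 immune cells at 341 CPM, was added. Of the leukocyte partners, Selplg, the P-selectin ligand, was found in 37 of 92 immune cells, Itgb2, the shared chain of the ICAM-binding integrins, in 61, and Itga4, the VCAM-1-binding chain, in 48. Itgb2 and Itga4 had 0 UMIs in endothelial cells 2, and Selplg had 13. Of 2 neutrophil genes in the table, S100a8 and Csf3r, 25 UMIs were found in all immune cells.

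Outside the vessels, Vcam1, Icam1 and Ackr1 were found in fibroblasts. Of 239 Vcam1 UMIs, 117 were outside the endothelium. With the libraries pooled Vcam1 was highest in endothelial cells 2 (128 CPM, exact 95% interval 105 to 155), followed by tendon fibroblasts 3 (56.9, 35.2 to 86.9), nerve cells 3 (43.2, 15.9 to 94.1), tendon fibroblasts 2 (34.3, 26.2 to 44.0) and bursal fibroblasts (19.2). These neighbours after endothelial cells 2 overlap in their intervals, which cover counting error only. Tendon fibroblasts 1, by contrast, had 0 Vcam1 UMIs in 173 cells. Icam1 was at 735 CPM in endothelial cells 2, then at 159, 125, 118 and 107 CPM in endothelial cells 3, tendon fibroblasts 3, endothelial cells 1 and immune cells, whose intervals overlap. In endothelial cells 3, 1 cell held 32.7% of the 52 Icam1 UMIs. By library it was lower there than in endothelial cells 1 in 3 of 4 libraries. The means were 68.3 ± 80.7 CPM and 118 ± 26.2 CPM (SD, n = 4 libraries).

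Tendon fibroblasts 2 and 1 were compared in a test added after the data were seen, in the 3 libraries with 5 or more cells of both. All 3 genes that passed the filter were higher in tendon fibroblasts 2 in 3 of 3 libraries, where 8.12% of 7043 genes were called and 3.79% were higher. Icam1 had 4 UMIs in tendon fibroblasts 1 and Vcam1 and Ackr1 had 0, so all 3 passed the filter through tendon fibroblasts 2. They could only come out higher, and the count of 3 is not read against the 3.79%. Icam1 was at 30.7, 40.7 and 48.3 CPM in libraries 1, 3 and 4 of tendon fibroblasts 2 and at 4.77, 1.35 and 0 CPM in tendon fibroblasts 1, a log2 fold change of 3.66 ± 0.63 (edgeR adjusted p = 0.0057). The log2 fold change of Icam1 was 5.03 without library 1 and 3.04 without library 3. Vcam1 was at 39.7, 26.7 and 56.4 CPM against 0 in each library (61 against 0 UMIs, at least 18.8-fold higher, edgeR adjusted p = 0.0031). Pan-endothelial genes summed to 60.2 to 88.6 CPM in tendon fibroblasts 2 and 59.3 to 79.3 CPM in tendon fibroblasts 1. Macrophage genes summed to at most 46.9 CPM in either. None of the 8 genes passed the filter when library 2, with 2 cells of tendon fibroblasts 2, was added or when the cells were thinned, so neither alternative tested them.

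Outside the endothelium, Ackr1 was found mostly in cells that also carried the neighbouring gene Cadm3. Ackr1 (chr1:173331886-173333750, minus strand) overlaps the 3-prime end of Cadm3, a cell adhesion gene of nerve cells (chr1:173333258-173367695), by 493 bases on the same strand, so reads there cannot be told apart by strand. In endothelial cells 2 there were 354 UMIs of Ackr1 and 150 of Cadm3, a ratio of 2.36, and the ratio was 2.76, 2.63, 2.06 and 0.955 in libraries 1 to 4. In nerve cells 1 and 2, tendon fibroblasts 2 and bursal fibroblasts the ratio was 0.190, 0.166, 0.267 and 0.231. In these 4 populations, of 291 cells, 73 had Ackr1, and 67 of them (91.8%) also had Cadm3. Another 84 cells had Cadm3 without Ackr1. In endothelial cells 2, 38 of the 58 cells with Ackr1 also had Cadm3, which 42 of the 74 cells carried. Ackr1 was at 80.0, 47.3, 26.4 and 18.0 CPM in nerve cells 1, nerve cells 2, tendon fibroblasts 2 and bursal fibroblasts. Its level in these 4 populations is reported as uncertain. Its difference between tendon fibroblasts 2 and 1 (47 against 0 UMIs, at least 14.5-fold higher, edgeR adjusted p = 0.0057) carries the same doubt. Immune cells and red blood cells had 0 UMIs of both genes.

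**Figure D5:**
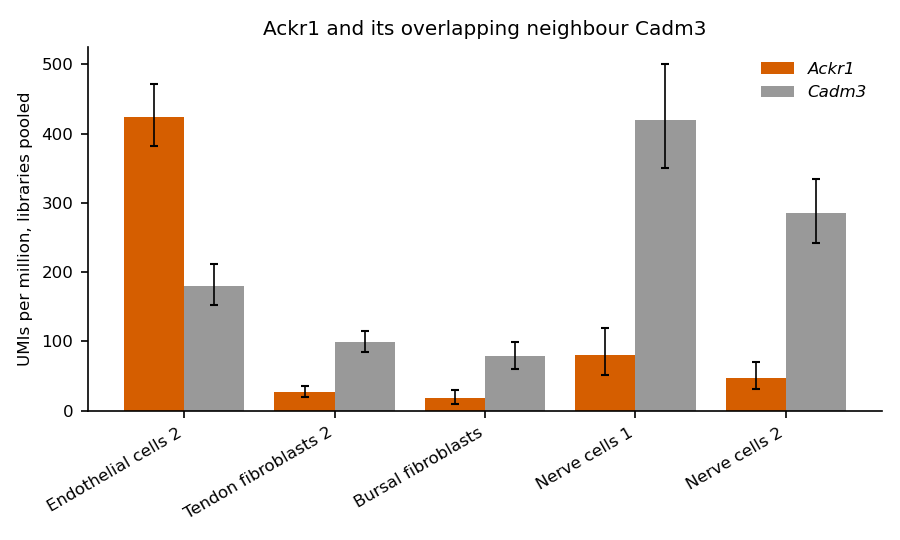
CPM (vertical axis, libraries pooled) of Ackr1 and Cadm3 in the populations with 20 or more UMIs of both genes together; bars show the pooled level and whiskers the exact Poisson 95% interval. Ackr1 exceeds Cadm3 in endothelial cells 2 (424 against 180 CPM) and lies below it in the other 4 populations.

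For each gene the 3 most alike in pattern were named by the Pearson correlation of log2(CPM + 1) over the 13 populations, among 9543 genes with 100 or more UMIs. Selp and Sele were most like each other (0.994), followed for both by Tmem252 and Enpp6. Icam2 was most like Emcn, Sox7 and Robo4 (0.993, 0.989 and 0.988) and Pecam1 most like Mmrn2, Cdh5 and Emcn (0.975, 0.964 and 0.960), which include established endothelial genes. Ackr1 was most like its overlapping neighbour Cadm3 (0.884), then Bace2 (0.768) and Lmo1 (0.761). Icam1 was most like Nhsl2 (0.934), Arrdc4 (0.911) and H2-M3 (0.906). Vwf was most like Tspan13 (0.892), Ppp1r16b (0.867) and Cyp4b1 (0.866), and Vcam1 most like Cxcl1 (0.865), Pnp2 (0.865) and Ifitm3 (0.854). With a pseudocount of 10, Icam1, Icam2, Vcam1, Ackr1 and Vwf kept at most 1 of their 3 genes.

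Other genes of leukocyte recruitment were read from lists, against a median log2 fold change of -0.02 over all 5126 genes between endothelial cells 2 and 1, of which 10.5% were higher and 7.74% lower. Of 5 tested cytokine receptors from a list of 10, 4 were higher and 1 was lower in endothelial cells 2 (median 1.13). Il1r1, the interleukin-1 receptor, was at 191 ± 64.2 CPM in endothelial cells 2 and 33.2 ± 10.4 CPM in endothelial cells 1 (SD, n = 4 libraries), a log2 fold change of 2.58 (edgeR adjusted p = 1.5e-06). Il6st, the shared signalling chain of interleukin-6 receptors, was at 1501 ± 291 CPM and 284 ± 113 CPM, a log2 fold change of 2.47 (edgeR adjusted p = 8.9e-07). Tnfrsf1a, a tumour necrosis factor receptor, and Il4ra, the interleukin-4 receptor, had log2 fold changes of 1.13 and 0.79. Ifngr1, the interferon-gamma receptor, was lower (log2 fold change -0.73, edgeR adjusted p = 0.0111). Of 9 tested genes of the NF-kB response list, 5 were higher and 1 lower (median 0.61), beside 10.5% and 7.74% of all genes, with Ier3, Nfkbiz and Irf1 higher by 1.95, 1.41 and 0.96 and Tnfaip2 at -1.10.

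Genes that tissue dissociation can induce were read in the same way. Of 16 such genes, 9 were higher and 2 lower in endothelial cells 2 (median 0.52), beside 10.5% and 7.74% of all genes, led by Atf3 (log2 fold change 2.29, edgeR adjusted p = 5.2e-07), Ier3, Zfp36 and Nr4a1, and Ier3 is also on the NF-kB list. Against pericytes 2 of the 16 were higher and 6 lower in endothelial cells 2, where 17.2% of all genes were higher and 33.5% were called. Against immune cells 6 were higher and 0 lower, where 17.7% were higher and 30.8% were called. The part of this response, and of the pericyte genes that were also higher in endothelial cells 2, in the levels of the 8 genes was not tested.

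Of 9 tested junction genes, 5 did not pass, and 18.2% of all genes were called. Higher were 2, Plvap, the diaphragm protein of fenestrae and caveolae (log2 fold change 1.49), and Cd47 (0.54), and 2 were lower, Jam3 (-2.16) and Cdh5 (-0.69), the main adhesion protein of endothelial junctions. Of 7 tested genes of Weibel-Palade bodies and their release, 1 was higher, a share near the 10.5% of all genes. It was Rab27a, a small GTPase of granule release, at 95.1 ± 32.3 CPM and 29.1 ± 9.86 CPM, a log2 fold change of 1.64 (edgeR adjusted p = 0.00091). Of 11 tested venous and capillary genes, 3 were higher and 6 lower (median -1.35): Lrg1, high in venules, was higher by 3.32, and Car4, a capillary enzyme, and Hey1, an arterial transcription factor, were at -3.26 and -2.63. Of 3 tested genes of selectin ligand synthesis, 0 passed in edgeR, and 1, the sialyltransferase gene St3gal6, had an unadjusted p under 0.05. Its edgeR adjusted p was 0.0793.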

How the data were processed

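Single-cell RNA was counted in 4 libraries, per the labels' protocols with a 3-prime kit. Counts are the deposited whole-number UMI counts per gene and cell, made by the authors against mm10 with Cell Ranger (version not given in the sources used here) and handled with Seurat 2.3.4 in R 3.5.2, per the submitters' processing notes. Cells, filters and the 13 populations are those of the deposited annotation, and no doublet caller was run. Of 15750 entries, 4 with a repeated name (0.0186% of UMIs) were left out. Counts were summed per library and population (5 or more cells, 3 or more libraries) and tested in edgeR 4.0.16 by quasi-likelihood (R 4.3.3, TMM scaling, low counts filtered, library as a block, Benjamini-Hochberg adjustment over all genes tested, threshold 0.05). Same-library correlations of deviations ran from -0.0285 to 0.112 in the 4 designed comparisons. The block was kept because both populations of a library came from the same sample.

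Alternatives were DESeq2 1.42.0, other scaling, no filter, no library block, other minimum cell numbers, thinned cells and leaving out each library. On simulated counts with 200 genes changed by a log2 of 2, edgeR recovered 76% for endothelial cells 2 against 1 (4799 genes), 85% for the endothelium against other cells (9153 genes), 73% against pericytes (4345 genes) and 56% against immune cells (3345 genes). Intervals are exact (95%) and cover counting error only, and the floor for a count of 0 is 3 counts. Positions are from GENCODE for mm10. The 8 genes and the gene lists were chosen with earlier results of these data known. Named beside them were, for each gene, the 3 genes most alike in pattern, and for each list up to 4 genes with the largest fitted change among those called. Ifngr1 and St3gal6 were named after their values were seen.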

Additional observations from a re-analysis of the deposited data

Results flagged for a closer look

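Each gene's 4 library values in a population were screened for a library far from the others, and 7 of 28 such groups held one. Chance flags about 1 in 20 groups of continuous values, but 4 of the 7 had 3 libraries at 0, which any count in the last library sets apart, so 7 of 28 cannot be read against that rate. Icam1 in endothelial cells 2 was at 1430 CPM in library 3, above 594 to 728 CPM in the others. Sele in endothelial cells 1 was at 7.91 CPM in library 1 and at 0 in the others. Vwf in pericytes was at 296 CPM in library 3, where all 22 UMIs lay in 1 cell that carried 3 or more pan-endothelial genes. Ackr1 in pericytes was at 1.82 CPM in library 1, from 1 UMI, and at 0 elsewhere. Icam2 in red blood cells was at 6.87 CPM in library 1, from 2 UMIs, and at 0 elsewhere. Vwf and Pecam1 in red blood cells were both at 23.5 CPM in library 2, from 7 UMIs each. Of these, 6 of Vwf and 5 of Pecam1 lay in 1 cell with 3 or more platelet genes, and that library's red blood cells held platelet genes at 811 CPM, against 0 in the other libraries.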

How the results depend on the processing

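The fold changes of the 7 genes tested kept their direction and their side of the threshold under every alternative that tested them. This held for endothelial cells 2 against endothelial cells 1 (84 of 84 values), pericytes (82 of 82) and immune cells (66 of 66). It also held for the 8 genes between the endothelium and all other cells (87 of 87). These totals count some fits more than once. Sums of 2 or more cells gave the main fit again in all of these comparisons except that with immune cells. Sums of 10 or more cells gave the main fit again for the endothelium against all other cells. For endothelial cells 1 and pericytes they gave the fit without library 4, and for immune cells that without library 3. Such repeats could not differ. Nor could the direction differ for genes with 0 or few UMIs on 1 side, as given above. Vcam1, untested in the first 3 of these comparisons under the filter, was called in each alternative that tested it there. Its log2 fold changes were 4.19 and 4.91 against endothelial cells 1, 3.66 and 3.80 against pericytes and 4.83 to 4.85 against immune cells. In each of these comparisons the only such fits were those with no filter or without library 3, where endothelial cells 2 had 0 Vcam1 UMIs. For immune cells, sums of 10 or more cells repeat the latter. The limits given above for endothelial cells 1 hold for all of them, so these calls are not read as holding across alternatives. Counts of genes called moved more. DESeq2 called 570 genes, against 933 by edgeR, between endothelial cells 2 and 1, and 371 against 572 between tendon fibroblasts 2 and 1. In thinned cells, with fewer genes tested, the counts were 287 against 933 between endothelial cells 2 and 1, 1284 against 2929 for the endothelium, 445 against 1574 for pericytes, 241 against 1156 for immune cells and 235 against 572 for tendon fibroblasts. With no filter they were 2363 for pericytes, 1108 against 717 and 679 against 276 for endothelial cells 3 set against endothelial cells 1 and 2, and 1073 for tendon fibroblasts. With sums of 2 or more cells, 551 genes were called against immune cells. Leaving out each library gave 484 to 997 genes between endothelial cells 2 and 1, 875 to 1899 for pericytes, 348 to 1663 for immune cells, 280 to 686 and 107 to 470 for endothelial cells 3 against endothelial cells 1 and 2, and 362 to 529 for tendon fibroblasts. The lowest counts were those without library 2 for the first 2 of these and without library 1 for the others. Of the 8 genes, 7 were called between endothelial cells 3 and 2 with no filter, against 4. Between tendon fibroblasts 2 and 1, 0 were called with sums of 2 or more cells or in thinned cells, where 0 were tested, against 3.

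With no replicate block, 880, 3098, 1595 and 1307 genes were called in the 4 designed comparisons, and 828, 353 and 547 in the 3 added ones. The Icam1 difference between endothelial cells 3 and 1 then changed sign, at 0.15 (edgeR adjusted p = 0.854) against -0.29, with neither called; the cause was not tested. Without the block Pecam1 passed between endothelial cells 3 and 2, and no other member's call changed. Of the shares of endothelial cells 2, 16 of 24 moved with the thinning depth. Endothelial cells 3 had 3 or 4 cells in all libraries but 1, and library 3 had 59457 UMIs in endothelial cells 2, which limit what those values can show.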
